A study of Mus musculus with 9 samples.

Results

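The HSF1-driven cytosolic chaperones are described here as a set of 10 genes, namely Hspa1a, Hspa1b, Hspa8, Hsph1, Dnajb1, Dnaja1, Hsp90aa1, Hsp90ab1, Bag3 and Hsf1. Hsf1 encodes the factor and not a chaperone, and the 10 chaperone genes below include it. The name is that of the set, and control by HSF1 was not tested. The set is defined by gene name and not by a threshold on values, and its 10 members were all found among the 55401 genes of the count table. All 10 passed the filter on low counts, which left 16762 genes for testing. The RNA came from primary neonatal mouse ventricular myocytes (NMVMs), heart muscle cells of wild-type C57BL/6J pups taken 1 day after birth and grown in DMEM with fetal bovine serum. There were 3 groups of 3 libraries each. The control group stayed in normal oxygen and complete medium. The hypoxia group was moved to DMEM without glucose or serum and kept for 6 h in a sealed chamber with an oxygen absorber, and the hypoxia + rSRGN group had the same treatment with recombinant SRGN (rSRGN, the proteoglycan serglycin) in the medium. The dose of rSRGN is not given in the sources used here. Set against control, low oxygen, loss of glucose and loss of serum cannot be told apart. The hypoxia + rSRGN group differs from the hypoxia group, according to the labels, by rSRGN and nothing else. The labels do not say that replicates were separate cultures or litters, so p-values measure only the spread between these samples, which may be technical.

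HSF1 is the transcription factor that switches on chaperone genes when unfolded protein builds up in the cytosol. In unstressed cells HSF1 is held inactive in complexes with chaperones of the HSP70 and HSP90 families. When these chaperones are drawn away by damaged proteins, HSF1 forms trimers and binds heat shock elements, which are inverted repeats of the bases GAA, in the promoters of its targets. HSP70 proteins bind exposed stretches of unfolded protein in a cycle driven by ATP. J-domain proteins (Dnajb1, Dnaja1) bring them their clients and start the cycle, and exchange factors (Hsph1, Bag3) release the nucleotide and reset it. HSP90 proteins act later on a narrower range of clients, such as kinases and receptors. Heart muscle relies on BAG3 for the turnover of proteins of the contractile apparatus, and HSP70 is a long-known stress protein of the ischaemic heart.

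The promoters of Hspa1a and Hspa1b are shown because these genes had the largest changes of the set and because each holds a match to the letters of a heat shock element. Promoter windows from RefSeq (GRCm38.p6) were found for 6 of the 10 members, namely Hspa1a, Hspa1b, Hsph1, Dnajb1, Dnaja1 and Bag3. Each window holds the 250 bases before the most upstream start site that the RefSeq table gives for the gene. Annotated exons, of the gene itself or of a neighbour, cover 218 of the 250 bases for Dnaja1, 47 for Dnajb1, 40 for Hsph1 and 0 for the others. Hspa1a and Hspa1b lie on the minus strand of chromosome 17, and their windows cover chr17:34972157-34972406 and chr17:34959239-34959488. They are printed 5′ to 3′ on the gene's strand, with the match to GAANNTTC in capitals.
Hspa1a: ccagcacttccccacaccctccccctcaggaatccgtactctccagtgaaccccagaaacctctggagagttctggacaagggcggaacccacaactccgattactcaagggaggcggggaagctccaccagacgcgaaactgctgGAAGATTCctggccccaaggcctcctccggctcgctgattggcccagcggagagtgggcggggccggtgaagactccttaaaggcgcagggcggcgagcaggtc
Hspa1b: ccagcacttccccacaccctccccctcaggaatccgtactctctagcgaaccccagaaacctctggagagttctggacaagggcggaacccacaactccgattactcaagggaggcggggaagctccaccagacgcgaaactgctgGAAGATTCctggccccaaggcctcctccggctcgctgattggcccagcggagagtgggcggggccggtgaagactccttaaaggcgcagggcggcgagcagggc
The windows are identical at 247 of 250 positions. The differences, counted from 1 at the 5′ end with the Hspa1a base first, are C44T, T47C and T249G. In both genes the match GAAGATTC begins 104 bases before the start site.

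Heat shock elements were searched as GAANNTTC and as TTCNNGAA, each of which reads the same on both strands, so that matches of these forms can overlap. Among the promoter windows of 27025 genes, 6.79% held the former, 7.18% the latter and 13% at least one of them. Of the 6 members with a window, 4 held a match. Besides Hspa1a and Hspa1b, Dnaja1 held GAAAATTC and Hsph1 held TTCTCGAA, and both of these matches lie in bases that the annotation counts as exon. The core of a hypoxia response element was searched on both strands as ACGTG or CACGT, found in 16.5% of all windows and in 0 of the 6, and as GCGTG or CACGC, found in 28.3% of all windows and in 2 of the 6 (Dnajb1 and Bag3). CCAAT or ATTGG was in 34.5% of all windows and in 4 of the 6 (Hspa1a, Hspa1b, Hsph1 and Dnajb1). A match or its absence describes these letters in this window only.

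The near identity of Hspa1a and Hspa1b goes on into the transcript. Their longest open reading frames have 1926 and 1929 bases and are 99.43% identical, against 73.93% between Hspa1a and the constitutive Hspa8 and 75.43% between Hsp90aa1 and Hsp90ab1. Of the 100-base windows of the Hspa1a transcript, 56.5% occur, read on either strand, in the transcript of another gene, mostly Hspa1b. The share was 49.9% for Hspa1b, 63.4% for Hspa8, 47.5% for Hsp90aa1 and 24% for Dnaja1, in annotated copies and, for Dnaja1, also in Smu1, and 0 for Hsph1, Dnajb1, Hsp90ab1, Bag3 and Hsf1. Fragments from such stretches can be split between copies or left out, so the values of Hspa1a and Hspa1b taken singly are uncertain and their sum is given beside them. Some shared windows are overlaps of genes at the same place and not copies. Of the 2967 exon bases of Hspa1a, 564 (19%) lie under Gm20481 on the opposite strand, which had a count of 0 in all libraries. Of the 8629 exon bases of Dnaja1, 608 (7.05%) lie under Smu1 on the opposite strand. On the same strand, exons of Hspa8 hold the small RNA genes Snord14c, Snord14d and Snord14e (86, 86 and 90 bases), which had a count of 0 in all libraries, and exons of Dnaja1 hold Mir207 (74 bases), with 11 counts over all libraries. The counting did not use strand. Annotated copies held 2.19 to 2.48% of the summed counts of Hspa8 and its copies in every library, 0.791 to 1.05% for Hsp90aa1 and 2.22 to 3.53% for Dnaja1. For Hspa1a, the genes that share windows with it apart from Hspa1b (Hspa1l, Gm10501 and Gm20481) held 29.2 to 46.2% of the summed counts in control, where all counts were low, and 0.0458 to 0.0875% in the hypoxic libraries. For Hspa1b the same genes held 13.2 to 18% in control and 0.029 to 0.059% in the hypoxic libraries. The fold changes of both genes rest on these control levels.

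The libraries held 21669017 to 22781557 counts in control, 16583985 to 18148474 in hypoxia and 16640239 to 20826701 in hypoxia + rSRGN. Cardiomyocyte genes were present in all groups, but the sum of 12 of them (among them Myh6, Tnnt2 and Ttn) was 46919 to 55537 CPM (counts scaled to a common library total) in control, 4157 to 6323 CPM in hypoxia and 7915 to 8598 CPM in hypoxia + rSRGN. All 12 were called lower in hypoxia than in control, beside 25.1% of all tested genes. Of the 12, 11 were called higher in hypoxia + rSRGN than in hypoxia, beside 2.27% of all tested genes. The sum of 10 fibroblast genes was 10008 to 11243 CPM in control, 20959 to 24442 CPM in hypoxia and 23273 to 23941 CPM with rSRGN. Of the 10, 8 were called higher in hypoxia, beside 26.4% of all tested genes. The sum of 8 macrophage genes was 227 to 234 CPM in control, 25.1 to 28 CPM in hypoxia and 28.9 to 35 CPM with rSRGN, and the sum of 8 endothelial genes was 73.3 to 98.5, 49.7 to 66.1 and 52.1 to 66.3 CPM. All 8 macrophage genes and 6 of the 8 endothelial genes were called lower in hypoxia than in control, and 0 higher. The sum of 6 smooth muscle genes was 2028 to 2399, 2188 to 2392 and 1901 to 2019.8 CPM, and 5 erythroid genes summed to at most 0.606 CPM, with Hba-a2 at 0 in all libraries. The part of these shifts in the chaperone values was not tested, and in RNA from a whole culture fewer cells of a type and less RNA per cell cannot be told apart.

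A gene was called when the adjusted p of edgeR's quasi-likelihood test (Benjamini-Hochberg over the 16762 genes) was below 0.05 and the fold change was at least 1.5. All 10 chaperone genes were called higher in hypoxia than in control and 0 were called lower, where 26.4% of all tested genes were called higher and 25.1% lower. Values of the groups did not overlap for any of the 10, which was so for 73% of all tested genes. The median log2 fold change of the 10 was 1.85, and that of all tested genes was 0.0537. The range was wide, from 0.91 for Hsp90ab1 to 10.34 for Hspa1a.

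**Figure D1:**
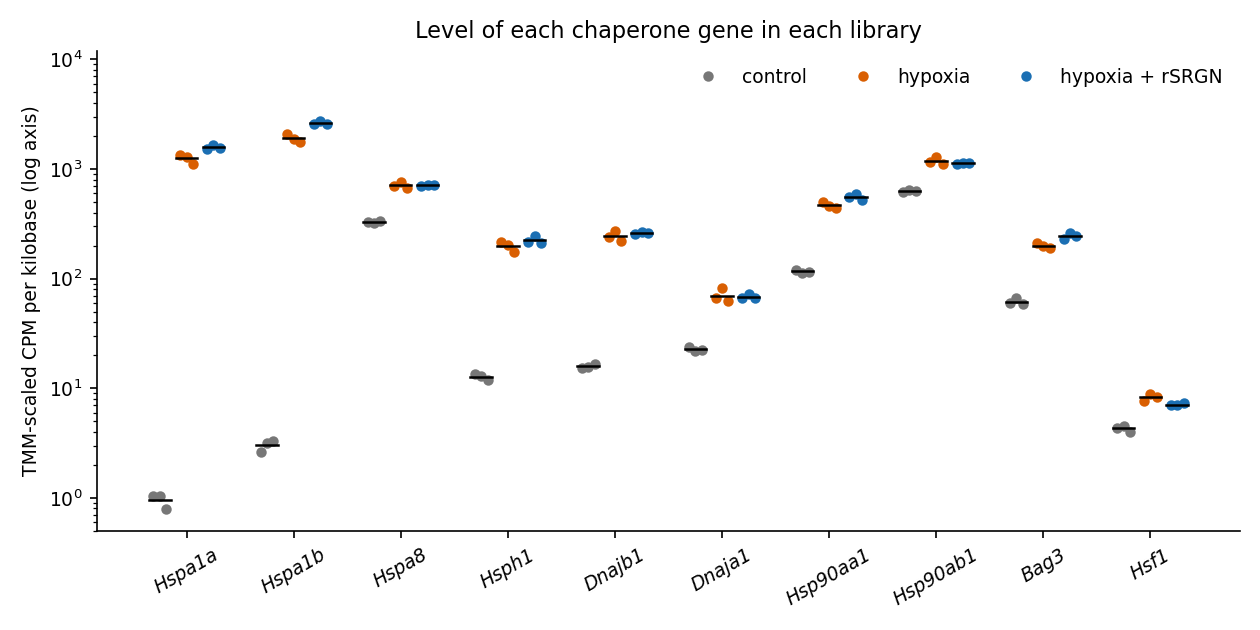
Level of each of the 10 chaperone genes in each library, in TMM-scaled CPM per kilobase of exon on a log axis, with control in grey, hypoxia in orange and hypoxia + rSRGN in blue (points, libraries; black lines, means of 3). Hspa1a and Hspa1b move from the bottom of the control values, at means of 0.959 and 3.03, to the top of the hypoxia values, at 1248 and 1907.

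Levels between genes are compared per kilobase of merged exon length, which lowers the value of genes with many annotated exons. That length was 2967 bases for Hspa1a, 2999 for Hsp90ab1 and 4301 for Hspa8. Their longest coding transcripts had 2967, 2520 and 2394 bases. The order of Hspa1a, Hsp90ab1 and Hspa8 in hypoxia therefore depends on the length used. In control the constitutive chaperones led. Hsp90ab1, the constitutive cytosolic HSP90, had 633 ± 11.9 CPM per kilobase (SD, n = 3), and Hspa8, the constitutive cytosolic HSP70, had 327 ± 6.4. They were followed by Hsp90aa1 (116 ± 3.58), Bag3 (61.8 ± 3.76), Dnaja1 (22.7 ± 0.905), Dnajb1 (15.8 ± 0.668), Hsph1 (12.7 ± 0.79) and Hsf1 (4.3 ± 0.269). Hspa1b (3.03 ± 0.375) and Hspa1a (0.959 ± 0.14) were the lowest of the 10, and no neighbours in this order overlapped.

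By this measure the inducible HSP70 genes led in hypoxia, with Hspa1b at 1907 ± 179 and Hspa1a at 1248 ± 118 CPM per kilobase (SD, n = 3). Hsp90ab1 (1193 ± 92.2), Hspa8 (709 ± 42.6), Hsp90aa1 (468 ± 27.6), Dnajb1 (243 ± 24.6), Bag3 (199 ± 11.3), Hsph1 (198 ± 20.3), Dnaja1 (70.1 ± 10.6) and Hsf1 (8.24 ± 0.658) followed. The libraries of Hspa1a and Hsp90ab1 overlapped in this order, as did those of Bag3 and Hsph1. Among all tested genes Hspa1b held rank 8936 to 9730 by CPM per kilobase in control, rank 13 or 14 in hypoxia and rank 8 or 9 in hypoxia + rSRGN.

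The order in hypoxia + rSRGN was that of hypoxia: Hspa1b (2639.9 ± 99.7 CPM per kilobase, SD, n = 3), Hspa1a (1576 ± 57), Hsp90ab1 (1124 ± 15.3), Hspa8 (710.2 ± 6.87), Hsp90aa1 (553 ± 34.1), Dnajb1 (260.2 ± 4.45), Bag3 (246 ± 15.7), Hsph1 (224 ± 17.4), Dnaja1 (68.5 ± 3.46) and Hsf1 (7.09 ± 0.176). Hspa1a and Hsp90ab1 no longer overlapped, whereas Dnajb1 and Bag3 did, as did Bag3 and Hsph1.

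Hsf1, the gene of the factor itself (chromosome 15, 76477422 to 76501913, plus strand), had a modest rise. It was at 30.9, 32.3 and 28.5 TMM-scaled CPM in the control libraries, at 53.9, 63.2 and 58.5 in hypoxia and at 49.7, 49.5 and 51.8 in hypoxia + rSRGN. All hypoxic libraries were above all control libraries, and the values with rSRGN lay between the other groups. The log2 fold change from control to hypoxia was 0.94 (SE 0.0865, 1.91-fold, adjusted p = 2.3e-09, edgeR). Hsf1 had the lowest level of the 10 in both hypoxic groups.

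Hspa1a and Hspa1b encode the stress-inducible cytosolic HSP70. They lie on chromosome 17, Hspa1a at 34969190 to 34972156 and Hspa1b at 34956436 to 34959238. Hspa1a was at 3.06, 3.12 and 2.37 CPM in control, from counts of 68, 69 and 49, at 3979.8, 3819 and 3307 CPM in hypoxia and at 4547, 4868 and 4617 CPM in hypoxia + rSRGN. Hspa1b was at 7.28, 8.94 and 9.23 CPM in control, at 5891, 5246 and 4903 CPM in hypoxia and at 7194, 7718 and 7288 CPM in hypoxia + rSRGN. Both genes were low in control and among the most abundant RNAs of the hypoxic cultures. The log2 fold change from control to hypoxia was 10.34 for Hspa1a (SE 0.133, 1294-fold, adjusted p = 1.14e-23, edgeR) and took rank 6 of the 16762 tested genes. It was 9.3 for Hspa1b (SE 0.127, 630.5-fold, adjusted p = 2.03e-23), at rank 12. The genes together made up 0.00102 to 0.00117% of all counts in control, 0.855 to 1.01% in hypoxia and 1.18 to 1.25% in hypoxia + rSRGN, a sum that does not change with how fragments were divided between them but lacks any that were left out.

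Hspa8 encodes HSC70, the constitutive counterpart that folds and sorts proteins in unstressed cells (chromosome 9, 40800984 to 40810087, plus strand). It was at 1407, 1379 and 1434 CPM in control, at 2991, 3257 and 2905 CPM in hypoxia and at 3022, 3063 and 3079 CPM in hypoxia + rSRGN. It rose from an already high level, and the values of both hypoxic groups overlapped. The log2 fold change from control to hypoxia was 1.12 (SE 0.073, 2.17-fold, adjusted p = 6.43e-12, edgeR).

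Hsph1 encodes HSP105, a large HSP70 relative that acts as exchange factor and holds unfolded protein in solution (chromosome 5, 149614287 to 149636376, minus strand). It was at 97.6, 93.3 and 86.2 CPM in control, at 1574, 1459 and 1281 CPM in hypoxia and at 1583, 1767 and 1525 CPM in hypoxia + rSRGN. Its rise came next after the inducible HSP70 genes, with a log2 fold change of 3.96 from control to hypoxia (SE 0.0951, 15.6-fold, adjusted p = 6.3e-19, edgeR).

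The J-domain proteins of the set differed in how far they rose. Dnajb1 encodes HSP40, the J-domain partner of inducible HSP70 (chromosome 8, 83608193 to 83612653, plus strand). It was at 48.8, 50.5 and 53.1 CPM in control, at 769.6, 863 and 706 CPM in hypoxia and at 823, 849.9 and 828 CPM in hypoxia + rSRGN. Its log2 fold change of 3.94 (SE 0.0867, 15.4-fold, adjusted p = 2.34e-19, edgeR) was close to that of Hsph1. Dnaja1, a J-domain protein that is farnesylated and serves HSC70 (chromosome 4, 40722150 to 40737149, plus strand), was at 205, 190.02 and 193 CPM in control, at 570.2, 709 and 536 CPM in hypoxia and at 579, 626 and 570.1 CPM in hypoxia + rSRGN. Its log2 fold change was 1.63 (SE 0.0893, 3.09-fold, adjusted p = 2.99e-13). The 95% intervals of the log2 fold change, 3.76 to 4.12 for Dnajb1 and 1.44 to 1.81 for Dnaja1, do not overlap.

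The HSP90 genes had the same contrast between an inducible and a constitutive form. Hsp90aa1, which encodes the inducible HSP90 alpha (chromosome 12, 110690605 to 110702728, minus strand), was at 472, 444 and 456 CPM in control, at 1959, 1805 and 1749.6 CPM in hypoxia and at 2177, 2308 and 2039.7 CPM in hypoxia + rSRGN. Hsp90ab1, which encodes the constitutive HSP90 beta (chromosome 17, 45567775 to 45573271, minus strand), was at 1868, 1938 and 1888 CPM in control, at 3508, 3884 and 3345 CPM in hypoxia and at 3321, 3376 and 3412 CPM in hypoxia + rSRGN. Both rose, but Hsp90aa1 rose more. The log2 fold change from control to hypoxia was 2.01 for Hsp90aa1 (SE 0.0775, 4.02-fold, adjusted p = 7.23e-16, edgeR) and 0.91 for Hsp90ab1 (SE 0.0753, 1.89-fold, adjusted p = 3.25e-10), with 95% intervals of 1.84 to 2.17 and 0.76 to 1.07.

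Bag3 encodes an exchange factor that hands HSP70 clients to autophagy (chromosome 7, 128523616 to 128546981, plus strand). It was at 154, 169 and 151 CPM in control, at 543, 503 and 486 CPM in hypoxia and at 593, 673 and 624 CPM in hypoxia + rSRGN. The groups followed each other without overlap. The log2 fold change from control to hypoxia was 1.69 (SE 0.0768, 3.23-fold, adjusted p = 1.14e-14, edgeR).

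The balance between inducible and constitutive forms was read within each library, where scaling between libraries plays no part. The ratio of Hspa1a and Hspa1b to Hspa8, in counts per kilobase with 1 count added to each gene, was 0.0112, 0.0133 and 0.0124 in control, 4.95, 4.17 and 4.24 in hypoxia and 5.83, 6.17 and 5.8 in hypoxia + rSRGN. As counted, the ratio was above 1 in every hypoxic library and below 1 in every control library. The mean log2 ratio was higher by 8.5 in hypoxia than in control. The level of this ratio depends on the gene lengths used. In counts without gene length it was 0.00738 to 0.00878 in control, 2.78 to 3.3 in hypoxia and 3.87 to 4.11 in hypoxia + rSRGN. The ratio of Hsp90aa1 to Hsp90ab1 was 0.193, 0.175 and 0.184 in control, 0.426, 0.355 and 0.399 in hypoxia and 0.5, 0.522 and 0.456 in hypoxia + rSRGN. As counted, this ratio was below 1 in all 9 libraries. Since windows shared with copies are more frequent in Hsp90aa1 than in Hsp90ab1, and also frequent in the HSP70 genes, fragments left out could shift the level of either ratio. The mean log2 ratio was higher by 1.09 in hypoxia than in control. For each ratio an exact permutation test gave p = 0.1 (two-sided), the smallest p that 3 libraries against 3 can reach.

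**Figure D2:**
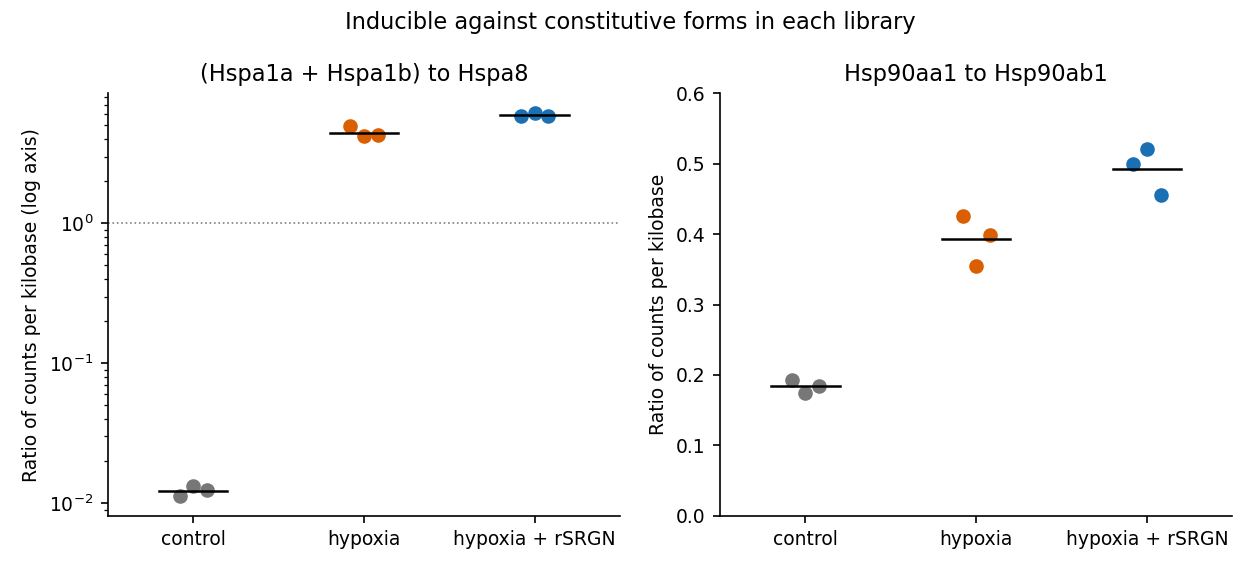
Ratio of counts per kilobase of Hspa1a and Hspa1b to Hspa8 (left, log axis, dotted line at a ratio of 1) and of Hsp90aa1 to Hsp90ab1 (right, linear axis from 0) in each library, with black lines at the means of 3. The left ratio lies between 0.0112 and 0.0133 in control and between 4.17 and 6.17 in the hypoxic libraries, and the groups do not overlap in either panel.

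The 10 genes took 0.425, 0.419 and 0.411% of all counts in the control libraries, 2.24, 2.14 and 2.01% in hypoxia and 2.41, 2.52 and 2.42% in hypoxia + rSRGN. The groups did not overlap. The share was higher by 1.71 percentage points in hypoxia than in control and by 0.321 percentage points in hypoxia + rSRGN than in hypoxia, and for each an exact permutation test gave the smallest p of the design, 0.1 (two-sided). Hspa1a and Hspa1b made up 0.241 to 0.28% of the counts of the set in control, 42 to 45.2% in hypoxia and 49.1 to 49.8% in hypoxia + rSRGN.

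**Figure D3:**
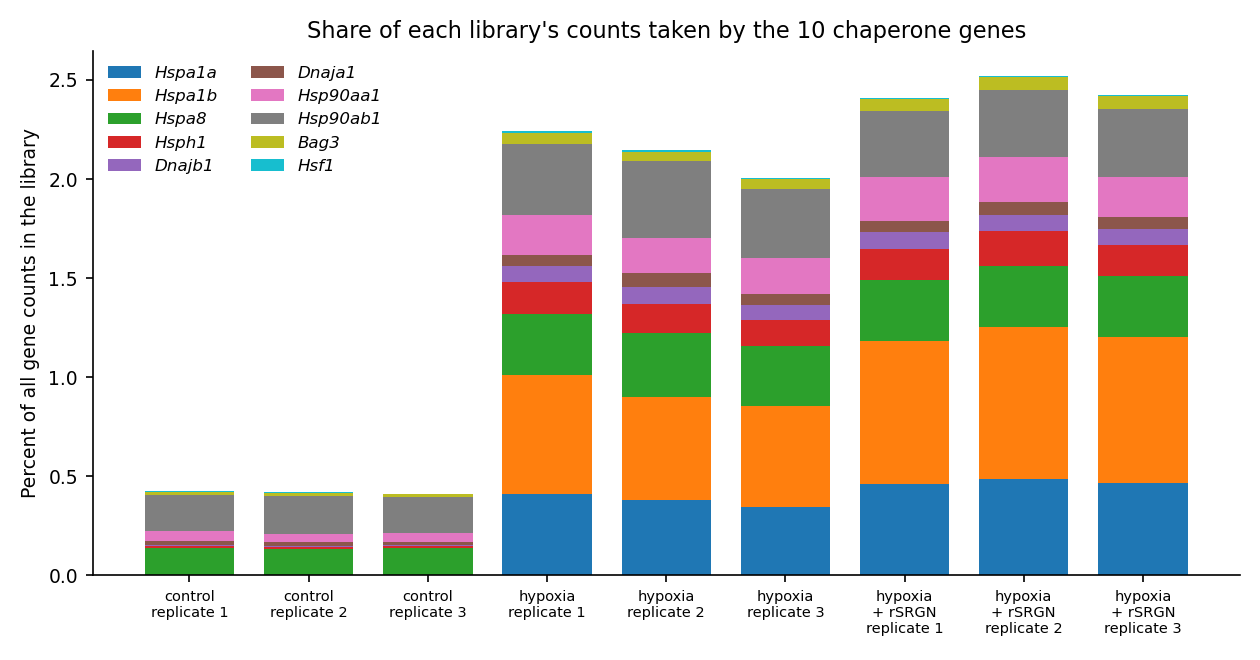
Percent of all gene counts taken by each of the 10 chaperone genes in each of the 9 libraries (stacked bars, 1 colour per gene). The bars reach 0.411 to 0.425% in control, 2.01 to 2.24% in hypoxia and 2.41 to 2.52% in hypoxia + rSRGN, and Hspa1a and Hspa1b are too small to see in control.

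Between hypoxia + rSRGN and hypoxia the differences were small. At the adjusted p and fold limit 0 of the 10 were called in either direction, where 2.27% of all tested genes were called higher and 0.859% lower. These shares rested in part on single libraries: without hypoxia replicate 3 they were 1.15% and 0.688% (321 genes called in place of 525), and without hypoxia + rSRGN replicate 2 they were 1.64% and 0.405% (354 genes), with 0 of the 10 called in either case. The median log2 fold change of the 10 was 0.14, with a range from -0.22 to 0.47, and the median of all tested genes was -0.03. At the adjusted p alone (edgeR), 4 of the 10 were higher and 0 lower, where 10.5% of all tested genes were higher and 6.11% lower. An unadjusted p under 0.05 was reached by 6 of the 10, of which 5 were higher and 1 (Hsf1) lower, where 15.9% of all tested genes were higher and 13.5% lower. The groups did not overlap for 5 of the 10, against 32% of all tested genes.

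The 4 genes were Hspa1b, Hspa1a, Bag3 and Hsp90aa1. Hspa1b was higher with rSRGN by a log2 fold change of 0.47 (SE 0.0853, 1.38-fold, adjusted p = 0.000851, edgeR). Hspa1a was higher by 0.34 (SE 0.0826, 1.26-fold, adjusted p = 0.00766) and Bag3 by 0.3 (SE 0.0743, 1.23-fold, adjusted p = 0.00774). Hsp90aa1 was higher by 0.24 (SE 0.0746, 1.18-fold, adjusted p = 0.0289). All 3 libraries with rSRGN were above all 3 hypoxia libraries for each of these genes, as the values above show. The count of 4 rested in part on the library hypoxia + rSRGN replicate 2, which had the highest value of its group in 7 of the 10 genes. Without that library 1 gene (Hspa1b) passed the adjusted p, and without hypoxia replicate 3 or hypoxia + rSRGN replicate 1 the genes that passed were 3 (Hspa1a, Hspa1b and Bag3). DESeq2 passed 5, with Hsph1 in addition. Over the 16 alternatives the adjusted p ranged from 5.39e-11 to 0.0106 for Hspa1b, from 1.04e-05 to 0.0575 for Hspa1a, from 4.64e-05 to 0.0718 for Bag3 and from 0.000361 to 0.169 for Hsp90aa1.

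For the other members the interval of the difference bounds the change. Hspa8 had a log2 fold change of 0.0018 with a 95% interval of -0.15 to 0.15, Dnaja1 of -0.03 (-0.21 to 0.15) and Hsp90ab1 of -0.09 (-0.24 to 0.07). Dnajb1 had 0.1 (-0.06 to 0.25) and Hsph1 had 0.18 (0.0028 to 0.35, adjusted p = 0.163 by edgeR and 0.0472 to 0.522 over the 16 alternatives). None of these intervals reaches the fold limit of 1.5, which is 0.585 on the log2 scale. Hsf1 had the lowest value of the set, -0.22 (SE 0.0848, adjusted p = 0.0855, edgeR), with every rSRGN library below every hypoxia library. It passed the adjusted p only when hypoxia replicate 1 was left out (0.0421), and over the 16 alternatives its adjusted p was 0.0421 to 0.227.

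**Figure D4:**
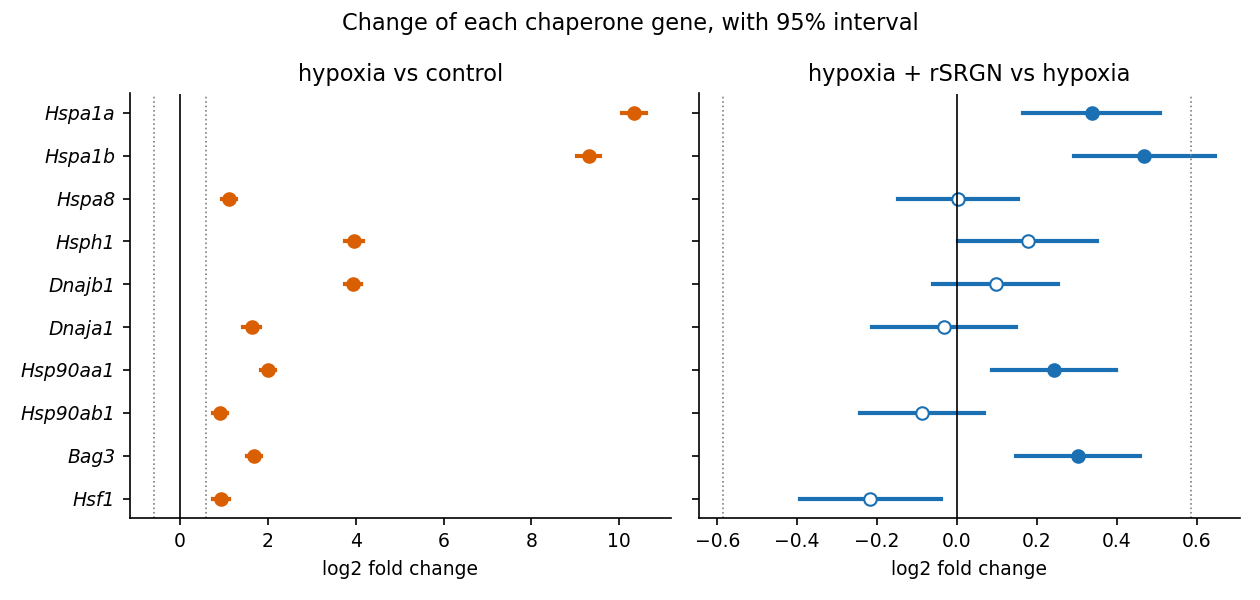
Log2 fold change of each chaperone gene with its 95% interval for hypoxia against control (left) and hypoxia + rSRGN against hypoxia (right). Filled points passed an adjusted p of 0.05 and dotted lines mark a 1.5-fold change in either direction. The horizontal scales differ, from 0.91 to 10.34 on the left and from -0.22 to 0.47 on the right.

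The ratios within a library were also higher with rSRGN than in hypoxia. The mean log2 ratio of Hspa1a and Hspa1b to Hspa8 was higher by 0.42 than in hypoxia (1.34-fold), and that of Hsp90aa1 to Hsp90ab1 by 0.33 (1.25-fold), each with no overlap between the groups and p = 0.1 in the exact permutation test (two-sided), the smallest possible. The ratio of Hspa1b to Hspa1a counts was chosen after the values were seen. It was 1.48, 1.37 and 1.48 in hypoxia and 1.58, 1.59 and 1.58 in hypoxia + rSRGN, with an exact permutation p of 0.1, and 2.38, 2.87 and 3.9 in control, where the Hspa1a counts were 49 to 69. The cardiomyocyte sum was higher with rSRGN as well, as given above, and its part in these ratios was not tested.

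Against control, the hypoxia + rSRGN group had all 10 genes called higher and 0 lower, where 24.1% of all tested genes were called higher and 24.7% lower. This comparison shares its control libraries with the one above. The log2 fold changes ran from 0.72 for Hsf1 and 0.83 for Hsp90ab1 to 9.77 for Hspa1b and 10.67 for Hspa1a, with a median of 2.12.

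The members also differed in how replicates of a group ordered them. Within hypoxia, replicate 1 was the highest library for Hspa1a, Hspa1b, Hsph1, Hsp90aa1 and Bag3, and replicate 2 was the highest for Hspa8, Dnajb1, Dnaja1, Hsp90ab1 and Hsf1. Replicate 3 was the lowest for 9 of the 10. Over all genes, hypoxia replicate 2 stood further from replicates 1 and 3 (chi-square per degree of freedom 13.1 and 12.7) than these from each other (6.68). In control, replicate 1 stood apart from replicates 2 and 3 in the same way (9.99 and 9.98, against 4.68). The coefficient of variation in hypoxia was 5.67 to 15.2%, lowest for Bag3 and highest for Dnaja1. After the group mean was taken from each log2 value, the correlation over the 9 libraries was 0.92 between Hspa8 and Dnajb1, 0.89 between Dnajb1 and Hsp90ab1, 0.88 between Hspa8 and Dnaja1, 0.84 between Hsph1 and Hsp90aa1 and 0.81 between Hspa1a and Hsph1. It was -0.03 between Hspa1a and Hspa1b, -0.09 between Hsp90aa1 and Hsp90ab1, -0.43 between Hspa1b and Hsf1 and -0.56, the lowest value, between Hsp90aa1 and Hsf1. The value for Hspa1a and Hspa1b includes the control libraries, at 49 to 198 counts. There these genes varied most, with coefficients of variation of 14.6% for Hspa1a and 12.4% for Hspa1b. Within each hypoxic group Hspa1a and Hspa1b put the libraries in the same order. Over all 45 pairs the median was 0.28, and 8 pairs were below 0. These values describe 9 libraries that share their scaling and depth.

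Beyond the 10 members, 75 further genes of the cytosolic chaperone network were listed in 7 groups, of which 71 were tested. In hypoxia 16 of these rose and 13 fell against control, beside 26.4% and 25.1% of all tested genes. With rSRGN 1 of the 71 was called higher than in hypoxia (Unc45b) and 0 lower, beside 2.27% and 0.859% of all tested genes. At the adjusted p alone (edgeR, no fold limit), 34 of the 71 were higher and 21 lower in hypoxia, where 36.8% of all tested genes were higher and 34.1% lower, and 7 were higher and 5 lower with rSRGN, where these shares were 10.5% and 6.11%.

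Among 14 HSP70 relatives and exchange factors, 2 rose, 3 fell and 9 did not pass in hypoxia, with a median log2 fold change of -0.21. At the adjusted p alone 4 were higher and 6 lower. Hspa1l, a testis-type HSP70 gene next to Hspa1a that shares transcript windows with it, rose by 0.99 (SE 0.323, edgeR), and Hspa14, which acts at the ribosome, rose by 0.81 (SE 0.0914). Hspa12a, an atypical HSP70, fell by 1.69 (SE 0.114) and Bag2, an exchange factor that inhibits the ligase CHIP, fell by 0.94 (SE 0.101). Of the closest relatives of Hsph1, Hspa4 had -0.13 and Hspa4l had 0.2 on the log2 scale, and neither was called.

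Among 12 other cytosolic J-domain proteins, 1 rose, 4 fell and 7 did not pass, with a median of 0.03, and at the adjusted p alone 4 were higher and 4 lower. Dnajb4, a close relative of Dnajb1, rose by 1.51 (SE 0.0815, 2.85-fold). Dnajb5, also of this class, fell by 1.06 (SE 0.104), Dnajc5, a J-domain protein of vesicles, fell by 0.77 (SE 0.0745) and Dnajb14, which is anchored in the endoplasmic reticulum, fell by 0.62 (SE 0.0982).

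The 20 HSP90 co-chaperones had 9 genes that rose, 4 that fell and 7 that did not pass, with a median of 0.51, and at the adjusted p alone 12 were higher and 6 lower. Ahsa2, a relative of the activator of the HSP90 ATPase, rose by 1.28 (SE 0.0838, 2.43-fold). The largest falls were those of co-chaperones of striated muscle. Itgb1bp2 (melusin) fell by 3.85 (SE 0.12) and Unc45b, the chaperone of muscle myosin, fell by 3.42 (SE 0.149), beside falls of 2.4 to 4.95 in the 12 cardiomyocyte genes. Unc45b was the gene called with rSRGN, at 0.87 above hypoxia (SE 0.145, 1.83-fold). Cdc37l1, a relative of the kinase co-chaperone CDC37, fell by 1.22 (SE 0.0784). The part of the cardiomyocyte genes in these values was not tested.

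Of the 8 subunits of TRiC, the ring chaperonin that folds actin and tubulin, 2 rose by at least the fold limit and 0 fell, with a median of 0.42. Without the fold limit 7 of the 8 were higher at the adjusted p and 0 lower. Cct2 rose by 0.81 (SE 0.0709) and Cct7 by 0.66 (SE 0.0678). Of 8 prefoldin subunits and ribosome-bound chaperones, 2 rose and 0 fell, with a median of 0.2, and at the adjusted p alone 4 were higher and 2 lower. Those that rose were Btf3, a subunit of the nascent polypeptide-associated complex, which rose 2.06-fold, and Pfdn4, which rose 2.06-fold as well. Of 8 other heat shock factors and regulators of HSF1, 4 were tested and 0 were called in either direction by edgeR, with 2 higher and 0 lower at the adjusted p alone. Hsf2 had -0.06 on the log2 scale and Hsbp1, which binds HSF trimers, had 0.18.

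Of 5 partners of BAG3 in selective autophagy, 0 rose and 2 fell, and at the adjusted p alone 1 was higher and 3 lower. Flnc, a filamin of the contractile apparatus and a BAG3 client, fell by 1.42 (SE 0.0951) and Synpo2, which links BAG3 to membrane formation, fell by 1.17 (SE 0.102). The small heat shock protein Hspb8, which forms a complex with BAG3, had 0.17 (SE 0.079), and the receptor Sqstm1 had 0.58 (SE 0.0797, 1.4988-fold), just under the fold limit. Bag3 itself rose, as given above.

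**Figure D5:**
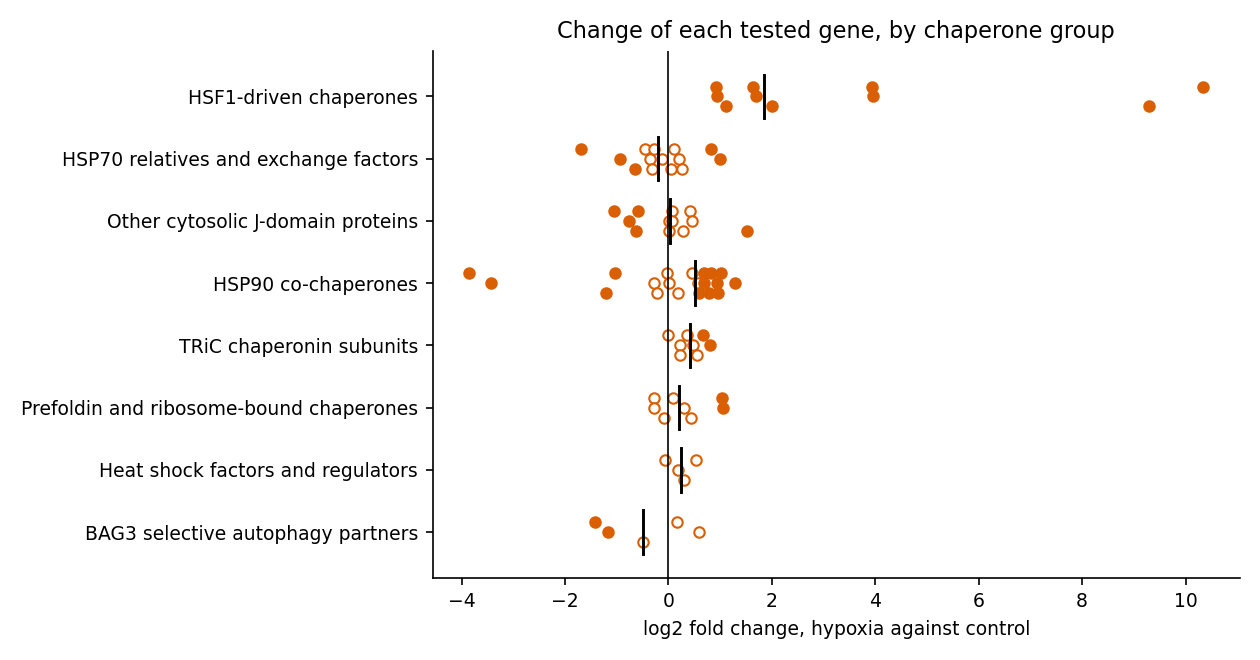
Log2 fold change of each tested gene in hypoxia against control, for the 10 HSF1-driven chaperones and for 7 other groups of chaperone genes (points, genes, filled where called; black lines, medians). The 10 chaperones have a median of 1.85 and all lie to the right of 0, whereas the medians of the other groups lie between -0.5 and 0.51.

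The genes most like Hspa1a, Hspa8 and Hsf1 over the 9 libraries were found among 14245 genes with a mean of at least 1 CPM, by Pearson's r of log2 CPM. For Hspa1a they were Igfbp2, Gm48565 and Gm8696 (r = 0.999 for each). For Hspa8 they were Gm15459 (r = 0.999), a processed pseudogene that shares 58.5% of the 100-base windows of Hspa8, Litaf (r = 0.999) and Slc3a2 (r = 0.998). For Hsf1 they were Hax1 (r = 0.997), Stx4a (r = 0.997) and Gm7665 (r = 0.996). The 9 points fall into the 3 groups of the study, so these values include the differences between groups.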

How the data were processed

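RNA-seq of 9 NMVM libraries was analysed from the deposited count table, in which the authors gave raw, whole-number counts of fragments for each gene. Per the file headers the counts come from featureCounts 2.0.1 (paired-end, exons summed by gene, GENCODE release M25, no strand option). The submitters' processing notes name HISAT2 and mm10. All count columns were used. Libraries were grouped and numbered by their titles. The paper describes other experiments, so its methods were not used.

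After filterByExpr and TMM scaling, 1 model with 3 group means was fitted to the 9 libraries in edgeR 4.0.16 (R 4.3.3), followed by the quasi-likelihood test and Benjamini-Hochberg adjustment over the 16762 tested genes. Intervals are 95%. Ratios and shares were compared with exact two-sided permutation tests. The procedure was tested on simulated data in which few genes changed, all by the same modest fold. That test does not cover changes as many or as large as those in hypoxia. Correlations used log2 CPM with a prior count of 2. Total counts per library were 16583985 to 22781557, and the spread between replicates also sets the precision.

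The members and gene lists were chosen with earlier results of these data known. Genes were named by a fixed rule: all members, at most 4 called genes of largest change per list and any called with rSRGN, the 3 genes most like Hspa1a, Hspa8 and Hsf1, and genes whose exons overlap a member. Values of Hspa4, Hspa4l, Hsf2, Hsbp1, Hspb8 and Sqstm1 and the genes beyond the ends of members were added after values were seen. Alternatives were DESeq2 1.42.0, RLE scaling, library size alone, no filter beyond 1 count, at least 10 counts in every library, the groups compared alone, a replicate block, the adjusted p alone and each library left out. Promoters are from RefSeq (GRCm38.p6), transcripts from GENCODE M21, and alignments were made with Biopython 1.88. Figures were drawn with matplotlib 3.10.9.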

Additional observations from a re-analysis of the deposited data

How the results depend on the processing

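The calls of all 10 chaperone genes in hypoxia and in hypoxia + rSRGN against control held in every alternative, each library left out included. Without the fold limit 4 of the 10 passed with rSRGN against hypoxia in place of 0, 55 further chaperone genes passed in hypoxia against control in place of 29, where 70.9% of all tested genes passed, and 12 passed with rSRGN in place of 1, where 16.6% of all tested genes passed. Leaving out 1 library at a time gave 1 to 2 further chaperone genes called with rSRGN, with 2 without hypoxia replicate 1 or without hypoxia replicate 2. Directions turned only for genes near 0 with rSRGN: Hspa8 (0.0018) was -0.0188 with library size alone and -0.0310 to 0.0529 with libraries left out, and Dnaja1 (-0.03) was 5.89e-05 in DESeq2 and -0.111 to 0.0988 with libraries left out. The cause was not tested. Same-numbered libraries did not deviate together (correlations of deviations -0.04 to 0.02). With 3 libraries per group this cannot exclude that same-numbered libraries share a culture or litter. With a replicate block all 10 members were called in both comparisons with control and 0 between the hypoxic groups, as without it, and 495 genes in all were called with rSRGN against hypoxia in place of 525. Library size alone moved the median of all genes in hypoxia against control from 0.0537 to 0.12, and the share of calls with rSRGN against hypoxia that were higher moved with several choices. It was 72.6% as reported, 66.9% with library size alone, 80.7% with RLE scaling, 79.6% with the groups compared alone, 73.9% with no filter beyond 1 count and 84.9% in DESeq2, which differs in filter, scaling and test. With 1 library left out it ran from 62.6% (without hypoxia replicate 3) to 80.2% (without hypoxia + rSRGN replicate 2). Depth limits Hspa1a and Hspa1b in control, at 49 to 198 counts per library, and Hsf1, at 590 to 1094.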

Other observations

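Gm8696 and Gm48565, among the genes most like Hspa1a, lie beyond the 3′ end of chaperone genes and on their strand. Gm8696, a processed pseudogene, begins 1724 bases beyond Hspa1b on chromosome 17 (34954328 to 34954712). It had 0 counts in all control libraries, 359 to 414 in hypoxia and 366 to 430 in hypoxia + rSRGN. Gm48565, an unclassified transcript, begins 10882 bases beyond Hspa8 on chromosome 9 (40820969 to 40822673). It had 0 counts in all control libraries, 270 to 386 in hypoxia and 315 to 497 in hypoxia + rSRGN. With a floor of 3 counts over the control group, Gm8696 was at least 487-fold and Gm48565 at least 406-fold higher in hypoxia per total count, a bound that covers counting error only.

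After these values were seen, all annotated genes within 20 kb beyond the 3′ end of a member were listed. Of 7 such genes on the strand of the member, members left out, 5 were tested. They include Gm8696 and Gm48565, which prompted the search. The other 3 were called higher in hypoxia, where 26.4% of all tested genes were called higher and 25.1% lower, and so few genes do not set the neighbours apart. They were 1110038B12Rik (1.86 on the log2 scale, beyond Hspa1b), 1700001K19Rik (1.31, beyond Hsp90aa1) and Tmem151b (1.49, beyond Hsp90ab1, from 11 counts over the control group). Of 6 genes on the opposite strand 4 were tested, of which 2 were called higher and 1 lower, beside the same shares of all tested genes. Wdr95, which ends 2393 bases from the 3′ end of Hsph1 on the opposite strand, had 4 to 7 counts per library in control and 177 to 216 in hypoxia, a log2 fold change of 5.51. The counting did not use strand, so the strand of these fragments is not known.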
